A study of Homo sapiens with 12 samples.

Results

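The interferon-stimulated genes described here are 42 genes that interferon, or foreign RNA sensed inside the cell, switches on in many human cell types. The rule that chose them names usual members of this response and uses no measured value, though it was made with earlier results of these data known. They are 42 of the 26485 genes in a table of RNA-seq read counts from HEK293 cells, a line derived from human embryonic kidney. In 12 libraries, 38 of the 42 genes were well counted (10 or more counts in at least 3 libraries), and 37 passed the filter on low counts and were tested among 17176 genes in all. The 5 genes that were not tested are *OAS1*, *XAF1*, *SAMD9L*, *SP100* and *TRIM22*.

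Cells of all 4 groups were transiently transfected with 1 μg of plasmid and harvested 48 hr later. The plasmid carried *PEG10* gag-pol, *PEG10* gag, the nucleocapsid part of *PEG10* (NC) or, as the control, LifeAct-Dendra2, a fluorescent protein joined to an actin-binding peptide. *PEG10* is a gene derived from a retrotransposon, and its gag and gag-pol proteins are made from a single mRNA by ribosomal frameshifting. Each group has 3 libraries from 3 passages of the cells, and the replicate number was taken to mark the passage. Every group, controls included, received plasmid DNA with a transfection reagent, so no library shows cells without foreign DNA, and the share of cells that took up the plasmid is not known. In bulk RNA, fewer cells that express a gene and less of its RNA per cell cannot be told apart.

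The interferon response starts with sensors of nucleic acids. RIG-I (encoded by *DDX58*, now named RIGI) and MDA5 (encoded by *IFIH1*) bind viral RNA in the cytosol and signal through MAVS to IRF3, which turns on the interferon-beta gene. Secreted interferon then binds its receptor, and a complex that holds STAT2 and IRF9 enters the nucleus and binds the interferon-stimulated response element (ISRE) in front of its target genes. The targets include the sensors, *STAT2* and *IRF9* themselves, so the pathway feeds back on its own parts. Some of them keep a low level without added interferon, and IRF3 and IRF1 can bind the same elements directly.

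Many of these genes carry the element near their start. They were chosen as usual members of the response, so a share of matches above that of all genes follows from the choice. An ISRE was searched on either strand as the letters GAAA NN GAAA, where N is any base, from 250 bases before to 50 bases after each annotated transcription start, in the RefSeq promoter table of GRCh38.p14. The table held 34 of the 42 genes, and 22 of these 34 (64.7%) had at least 1 match, against 4.38% of all 27305 genes in the table. The gamma-activated site, searched as TTCNNNGAA, was found for 8 of the 34 genes (23.5%, against 9.38% of all genes), and the NF-kB site GGGANTTCC for 1, *CXCL10* (2.94%, against 2.23%). The matches may overlap each other, and a match is a string of letters, not a shown binding site. *DHX58*, *IFIT2*, *IRF7*, *MX2*, *OAS2*, *OASL*, *TRIM22* and *USP18* were not matched in the table.

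The 150 bases just before the start are shown for *IFIT1* and *ISG15*, which were lower in gag-pol and NC than in gag and control, and for *BST2*, which was higher, to show that genes that moved in opposite directions carry the same element. The capitals mark the ISRE matches, and the sequences are from RefSeq, GRCh38.p14, 5′ to 3′ on the strand of the gene.
IFIT1, chr10:89392473-89392622, forward strand: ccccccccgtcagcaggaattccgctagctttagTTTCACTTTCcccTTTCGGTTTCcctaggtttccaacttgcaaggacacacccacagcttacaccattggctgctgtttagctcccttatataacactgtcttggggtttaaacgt
ISG15, chr1:1013347-1013496, forward strand: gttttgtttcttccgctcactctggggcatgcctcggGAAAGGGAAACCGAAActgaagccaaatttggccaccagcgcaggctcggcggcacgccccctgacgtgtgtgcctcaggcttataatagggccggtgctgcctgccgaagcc
BST2, chr19:17405631-17405780, reverse strand: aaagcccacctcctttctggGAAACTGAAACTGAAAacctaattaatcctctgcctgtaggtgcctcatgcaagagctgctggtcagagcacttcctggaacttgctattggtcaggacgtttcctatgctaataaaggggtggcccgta
In *IFIT1* the matches read TTTC, since they lie on the strand opposite to the gene, and begin at positions -116 and -103 from the transcription start. In *ISG15* they overlap and begin at -113 and -107, and in *BST2* they overlap and begin at -130 and -124.

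Short stretches around 1 match are shown for other genes that were lower (*IFI44*, *IFI27*, *IFI6*, *IFIT3*, *IFIH1*, *HERC5* and *RSAD2*) and then for *IFIT5*, *PARP14* and *EIF2AK2*, which were not called in any comparison of constructs.
IFI44, chr1:78649761-78649790, forward strand: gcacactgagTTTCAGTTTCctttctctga
IFI27, chr14:94110631-94110660, forward strand: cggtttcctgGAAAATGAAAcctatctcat
IFI6, chr1:27672266-27672295, reverse strand: gcagagtgcaGAAATAGAAActccgacagg
IFIT3, chr10:89332425-89332454, forward strand: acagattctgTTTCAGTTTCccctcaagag
IFIH1, chr2:162318686-162318715, reverse strand: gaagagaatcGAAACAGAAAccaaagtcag
HERC5, chr4:88457035-88457064, forward strand: aaacattatgTTTCGTTTTCcactggagct
RSAD2, chr2:6877622-6877651, forward strand: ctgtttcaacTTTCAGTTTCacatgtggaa
IFIT5, chr10:89414513-89414542, forward strand: ttctattaagTTTCGGTTTCtgaagcttac
PARP14, chr3:122680800-122680829, forward strand: tccaggaaacGAAAGCGAAAgagtcaaagt
EIF2AK2, chr2:37156967-37156996, reverse strand: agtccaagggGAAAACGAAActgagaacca
The plot of match positions shows where each match lies. Both the genes that were lower and those that were not called carry the element, and *CMPK2*, *DDX58* and *STAT2*, among others, had no match in the window. That absence says only that these letters are not in these 300 bases.

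**Figure D1:**
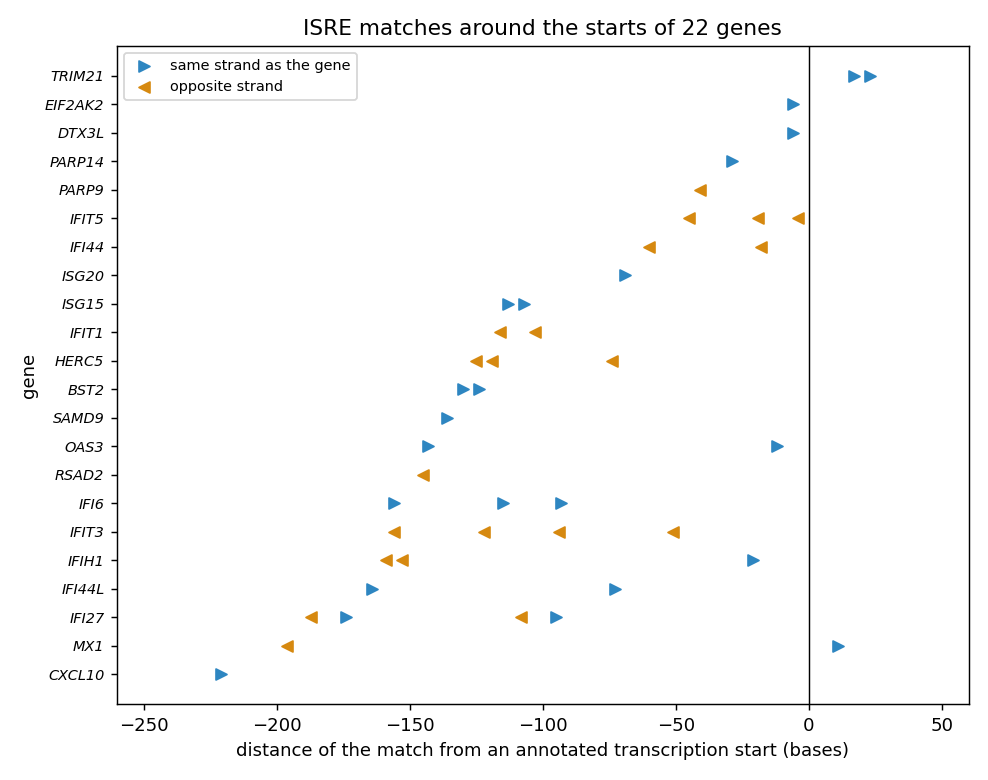
Position of each ISRE match (either strand) relative to an annotated transcription start, in bases on the x axis, for the 22 genes with a match, 1 gene per line. Right-pointing triangles are matches on the strand of the gene and left-pointing triangles matches on the opposite strand. A gene with several annotated starts shows a match once for each start. Most matches lie before a start, and those of TRIM21 lie after it.

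The libraries held 30625725 to 45316749 counts on genes. Counts of *PEG10*, from the cells' own and the transfected transcript together, were at most 14243 in a control library, at least 98420 with NC and at least 1267102 with gag-pol or gag. A normalized count is a count scaled by TMM to a library of mean total, and values are given for replicates 1, 2 and 3 in that order. Changes are log2 fold changes ± standard errors from edgeR's quasi-likelihood test, fitted to all genes and all 12 libraries with construct and replicate number in the model. The p-values were adjusted by the method of Benjamini and Hochberg over all 17176 tested genes. A gene is called at an adjusted p under 0.05. The comparisons share control or gag libraries and are therefore not independent of each other.

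Without any added interferon, HEK293 cells expressed most of these genes at a low but countable level. Per kilobase of exon, *ISG15*, a ubiquitin-like protein that is attached to other proteins, was the most abundant, with a mean of 2226 normalized counts per kilobase over the 12 libraries. It was followed by *IFI6* (669), *HERC5* (404), *IFIT2* (310.1) and *BST2* (260.4). The ranges of these genes over the libraries overlapped from *IFI6* downwards, whereas the range of *ISG15* overlapped only that of *IFI6*. *MX1*, often used as a readout of the response, had 26 to 97 counts in a library, *OAS1* 0 to 12, and *CXCL10*, a chemokine, 0 to 22. *XAF1* and *SAMD9L* had at most 2 and 3 counts and were at 0 in 9 and 11 of the 12 libraries.

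Several of these genes were lower with gag-pol than in control. Of the 37 genes tested, 7 were called lower and 2 higher, beside 11.3% of all genes tested that were called in this comparison (5.83% lower and 5.48% higher). The 7 lower genes were *DDX58*, *IFIT1*, *IFI27*, *IFI44*, *HERC5*, *IRF9* and *STAT2*, and the 2 higher ones were *BST2* and *IRF1*. The median log2 fold change of the 37 genes was -0.37, against -0.0014 for all genes. Below 0 lay 27 of the 37, beside 50.3% of all genes. Without control replicate 3, the library with the highest level of many of these genes, 4 of the 37 were called, beside 4.22% of all genes. Without gag-pol replicate 1, 5 were called, beside 5.13% of all genes.

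With NC, 3 of the 37 genes were called lower than control, namely *DDX58*, *IFIT1* and *HERC5*, and 1 higher, *BST2*, beside 11.2% of all genes called (5.15% lower and 6.04% higher). The share of these genes called (10.8%) was thus near that of all genes. Their median log2 fold change was -0.44 against 0.004, and 30 of the 37 lay below 0, beside 49.4% of all genes. The count of calls was 2 without control replicate 3 (2.1% of all genes called) and 10 without NC replicate 1 (5.5% of all genes called). With gag, none of the 37 genes was called against control in edgeR's test (1.08% of all genes called, 0.384% lower and 0.699% higher), 4 (*IRF1*, *HERC5*, *ISG20* and *IFI27*) had an unadjusted p under 0.05, and DESeq2 called 1, *ISG20*, as higher. The median log2 fold change with gag was 0.03, and 17 of the 37 lay below 0, beside 49.3% of all genes. Without control replicate 3, 2 of the 37 were called for gag against control (2.44% of all genes called), and without NC replicate 2, 1 was (1.57%).

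The constructs were also compared with each other. *DDX58*, *IFIT1*, *IFI44* and *IRF9* were lower and *BST2* was higher with gag-pol than with gag, which are 5 of 37 genes beside 6.46% of all genes called (3.42% lower and 3.03% higher). This count was 2 without gag-pol replicate 3, gag replicate 1 or gag replicate 2 (0.741%, 0.696% and 2.7% of all genes called). It was 3 without gag replicate 3 (3.03%) and 10 without control replicate 3 (10.6%). With NC, 8 genes were lower than with gag (*DDX58*, *DHX58*, *IFIH1*, *IFIT1*, *IFIT2*, *IFIT3*, *IFI44L* and *ISG20*) and *BST2* was higher, beside 16.9% of all genes called (8.12% lower and 8.76% higher). Here the count fell to 3 without NC replicate 3 or gag replicate 2 (12.9% and 9.45% of all genes called). It was 4 without NC replicate 2 or gag replicate 1 (12.4% and 5.36%), and 5 without gag replicate 3 (11.4%). Between NC and gag-pol none of the 37 genes was called by edgeR's test (0.0873% of all genes called, 0.0815% lower and 0.00582% higher) or by DESeq2, and *IRF1* and *IFI27* had an unadjusted p under 0.05. The joint test of the 3 constructs against control called 9 of the 37 genes, beside 20.6% of all genes. The count was 14 without control replicate 3 (19.1% of all genes called) and 15 without NC replicate 1 (13%).

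**Figure D2:**
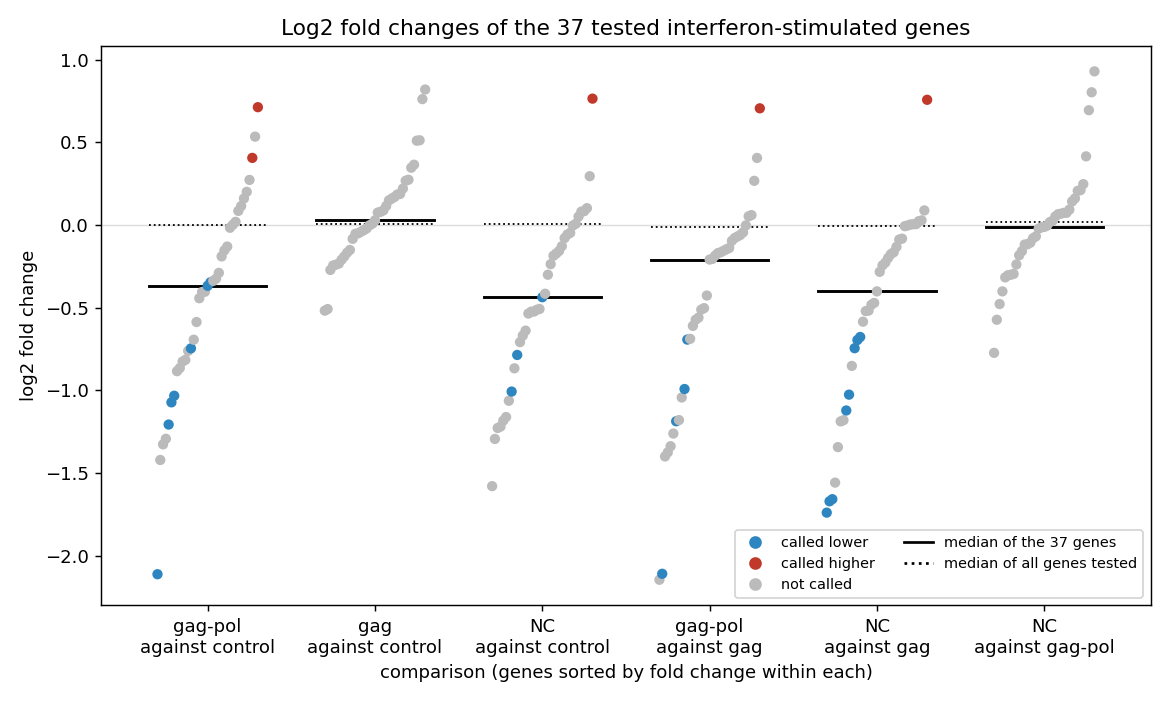
Log2 fold change (y axis) of each of the 37 tested genes in 6 comparisons (x axis), sorted within each comparison. Blue and red points are genes called lower and higher at an adjusted p under 0.05, solid lines are the medians of the 37 genes and dotted lines the medians of all genes tested. The medians lie between -0.44 and -0.21 in the comparisons of gag-pol or NC with control or gag, and near 0 for gag against control and for NC against gag-pol.

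The mean of NC and gag-pol was also set against the mean of control and gag, a pooled contrast chosen with earlier results known, in which 16 of the 37 genes were called, 15 lower and 1 higher. In this contrast 24.7% of all genes were called, 11.6% lower and 13.1% higher, against 43.2% of the 37 genes called in either direction. The median log2 fold change was -0.34, against -0.01 for all genes. The count was 10 without NC replicate 3 (20.5% of all genes called) and 8 without gag-pol replicate 3 (16.1%). All of these counts rest on the replicate number in the model: without it, none of the 37 genes was called in any comparison of constructs, and at most 0.0175% of all genes were.

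**Figure D3:**
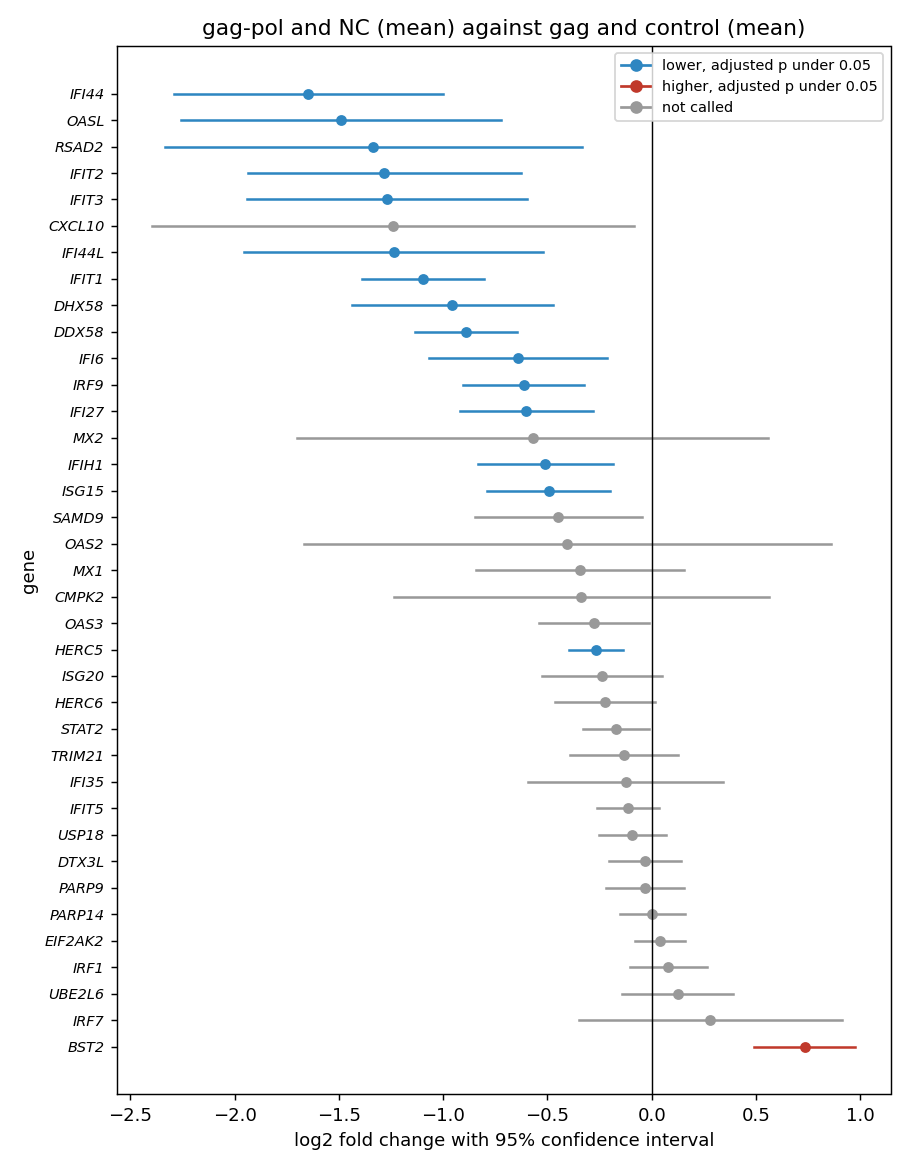
Log2 fold change with its 95% confidence interval (x axis) of the 37 tested genes in the pooled contrast (mean of NC and gag-pol against mean of control and gag), sorted by size. Blue marks the 15 genes called lower, red BST2, the gene called higher, and grey the 21 genes not called. The intervals are widest for genes with few counts, such as MX2, OAS2 and CXCL10.

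Among the RNA sensors, *DDX58* was lower with both gag-pol and NC. Its normalized counts were 558, 341 and 809.6 in the control libraries, 304, 215 and 287 with gag-pol, 526, 399 and 696 with gag and 415, 237 and 306 with NC. All 3 gag-pol libraries lay below all 3 control and all 3 gag libraries, and within every replicate number the NC library lay below the control and the gag library. The log2 fold change against control was -1.03 ± 0.17 (adjusted p = 0.000698) with gag-pol, -0.79 ± 0.17 (adjusted p = 0.00579) with NC and -0.04 ± 0.16 (adjusted p = 0.951) with gag. Against gag it was -0.99 ± 0.17 (adjusted p = 0.00358) with gag-pol and -0.75 ± 0.17 (adjusted p = 0.0049) with NC. The call for NC against control was lost without control replicate 3 or NC replicate 3 (adjusted p from 0.055 to 0.0754). In the annotation, 43.2% of the exon length of *DDX58* overlaps another gene on the same strand (ENSG00000288684), so part of its counts could belong to either gene.

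*IFIH1*, which encodes the sensor MDA5, had normalized counts of 546, 291 and 678 in the control libraries, 431, 379 and 365 with gag-pol, 704, 525 and 462 with gag and 485, 258 and 323 with NC. The 3 gag libraries overlapped the controls, and the NC library lay below the gag library within each replicate number. *IFIH1* was called lower for NC against gag, at -0.70 ± 0.21 (adjusted p = 0.0386), and in the pooled contrast, at -0.51 ± 0.15 (adjusted p = 0.0236). Against control its changes were -0.32 with gag-pol and -0.51 with NC and were not called (adjusted p = 0.354 and 0.143). The call for NC against gag was lost without gag-pol replicate 3, gag replicates 1 or 2 or NC replicates 2 or 3 (adjusted p from 0.051 to 0.152). The call in the pooled contrast was lost without gag-pol replicates 1 or 3, gag replicates 1 or 2 or NC replicates 2 or 3 (adjusted p from 0.0538 to 0.0932).

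*DHX58*, which encodes the regulator LGP2 of both sensors, had low normalized counts of 51.9, 54.1 and 104 in the control libraries, 31.2, 37.1 and 41.3 with gag-pol, 81, 60.8 and 86.4 with gag and 42, 21.4 and 51.8 with NC. All gag-pol and all NC libraries lay below all control and all gag libraries. The log2 fold change was -1.03 ± 0.33 (adjusted p = 0.0347) for NC against gag and -0.96 ± 0.23 (adjusted p = 0.00479) in the pooled contrast, while the changes against control were -0.88 ± 0.33 (adjusted p = 0.0815) with gag-pol and -0.87 ± 0.33 (adjusted p = 0.0898) with NC. The call for NC against gag was lost without gag replicates 1, 2 or 3 or NC replicates 1, 2 or 3 (adjusted p from 0.0548 to 0.166).

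*OASL*, an OAS-like protein that binds RIG-I, had normalized counts of 432, 193 and 842 in the control libraries, 249, 111 and 156 with gag-pol, 444, 332 and 518 with gag and 297, 54.9 and 148 with NC. Each gag-pol and each NC library lay below each gag library, and the control libraries overlapped all 3 other groups. By edgeR's test it was called only in the pooled contrast, at -1.49 ± 0.33 (adjusted p = 0.0159). The call was lost without gag-pol replicate 3 (adjusted p = 0.0646). DESeq2 also called *OASL* lower against control, at -1.41 ± 0.47 (adjusted p = 0.0265) with gag-pol and -1.62 ± 0.48 (adjusted p = 0.00928) with NC. Against gag, DESeq2's adjusted p was 0.0374 with gag-pol and 0.00651 with NC. The other sensors tested were not called in any comparison of constructs. These are *EIF2AK2*, the kinase PKR that stops translation when it binds double-stranded RNA, and *OAS2* and *OAS3*, which make the messenger that activates RNase L. *EIF2AK2* had a 95% interval of -0.08 to 0.16 in the pooled contrast, whereas the interval of *OAS2*, with 0 to 28 counts, was -1.67 to 0.86.

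**Figure D4:**
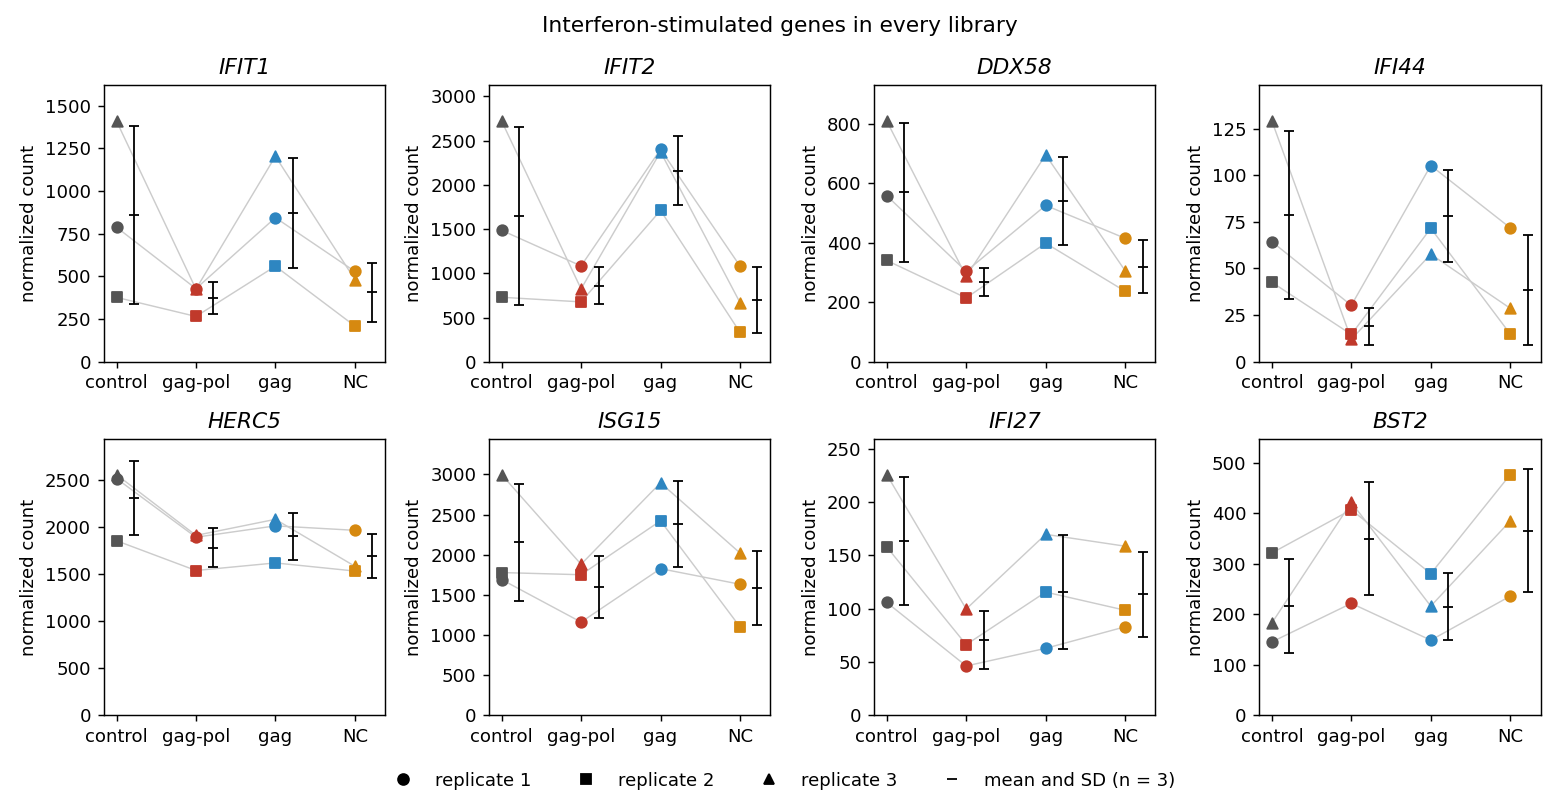
Normalized counts (y axis, from 0) of 8 interferon-stimulated genes in each of the 12 libraries by construct (x axis). Symbols mark the replicate number, grey lines join libraries of the same number, and the black bars are the mean and SD of 3 libraries. In IFIT1, IFIT2, DDX58 and IFI44 all gag-pol libraries lie below all gag libraries, and in BST2 the gag-pol and NC libraries lie above the control and gag libraries of the same replicate number.

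Of the 4 transcription factors, *IRF9* and *STAT2* were called lower and *IRF1* higher with gag-pol against control, beside 5.83% of all genes lower and 5.48% higher. *IRF9*, the DNA-binding part of the complex that holds STAT2, had normalized counts of 536, 597 and 1501 in the control libraries, 357, 433 and 688 with gag-pol, 534, 759.5 and 1078 with gag and 549.6, 347 and 816 with NC. Replicate 3 was the highest library in each group, and gag-pol lay below control and gag within every replicate number. Its log2 fold change with gag-pol was -0.75 ± 0.19 (adjusted p = 0.023) against control and -0.69 ± 0.19 (adjusted p = 0.0466) against gag, and with NC it was -0.54 ± 0.19 (adjusted p = 0.0863) against control. In the pooled contrast it was -0.61 ± 0.14 (adjusted p = 0.00515). The call for gag-pol against control was lost without control replicate 3 or gag-pol replicates 1 or 3 (adjusted p from 0.106 to 0.158). The call for gag-pol against gag was lost without control replicate 2, gag-pol replicates 1, 2 or 3, gag replicates 1, 2 or 3 or NC replicate 3 (adjusted p from 0.0551 to 0.288). In the annotation 23.9% of the exon length of *IRF9* overlaps another gene on the same strand (ENSG00000259529), so part of its counts could belong to either gene.

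*STAT2* had normalized counts of 1434, 1381 and 1927 in the control libraries, 1120.0, 1223 and 1360.1 with gag-pol, 1338, 1353 and 1426 with gag and 1572, 1136 and 1439 with NC. The 3 gag-pol libraries lay below the 3 control libraries, by a log2 fold change of -0.35 ± 0.11 (adjusted p = 0.0376), and the changes with gag and NC were -0.19 and -0.19, not called. The call with gag-pol was lost without control replicates 2 or 3, gag-pol replicates 1 or 3 or gag replicate 1 (adjusted p from 0.0534 to 0.259). *IRF1*, a factor that binds the ISRE and is induced by several cytokines, went the other way, with normalized counts of 470.2, 455 and 609.6 in the control libraries, 631, 749 and 645 with gag-pol, 537, 695 and 724 with gag and 458, 608 and 583 with NC. All gag-pol libraries lay above all control libraries (0.41 ± 0.13, adjusted p = 0.0402), and the changes were 0.35 ± 0.13 (adjusted p = 0.21) with gag and 0.10 ± 0.13 (adjusted p = 0.658) with NC. The call of *IRF1* with gag-pol was lost without control replicates 1 or 2, gag-pol replicates 1 or 2 or gag replicates 2 or 3 (adjusted p from 0.0502 to 0.249). The antisense gene *IRF1-AS1* overlaps 22.9% of the exon length of *IRF1*, the largest overlap with a single gene. Whether the counting used strand is not given in the sources used here.

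*IRF7*, which amplifies interferon production, differed between passages and was not called between constructs. It had normalized counts of 29.1, 163 and 63.4 in the control libraries, 21.2, 298 and 106 with gag-pol, 33.9, 269 and 44.2 with gag and 29.7, 114 and 131 with NC. Replicate 2 was far above replicate 1 in every group, by 2.86 ± 0.38 (adjusted p = 9.39e-05), while its change with gag-pol was 0.53 ± 0.41 (adjusted p = 0.437).

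Of the 5 genes of ISG15 conjugation, *HERC5*, the ligase that attaches ISG15, was lower than control with gag-pol and with NC. It had normalized counts of 2518, 1857 and 2559.9 in the control libraries, 1894, 1540.4 and 1914 with gag-pol, 2015, 1621 and 2085 with gag and 1968, 1535 and 1586 with NC. Within each replicate number the control library was the highest of the 4. The log2 fold change was -0.37 ± 0.09 (adjusted p = 0.00898) with gag-pol, -0.44 ± 0.09 (adjusted p = 0.00422) with NC and -0.27 ± 0.09 (adjusted p = 0.143) with gag. The call with gag-pol was lost without control replicate 3 or gag-pol replicate 1 (adjusted p from 0.0591 to 0.0646). The call with NC was kept in all 12 fits without 1 library.

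*ISG15* itself had normalized counts of 1691, 1778 and 2997 in the control libraries, 1161, 1751 and 1881 with gag-pol, 1827, 2423 and 2896 with gag and 1632, 1101 and 2022 with NC. Gag-pol and NC were below control and gag of the same replicate number, and the groups overlapped. It was called in the pooled contrast (-0.49 ± 0.13, adjusted p = 0.0222) but not against control with gag-pol (-0.40 ± 0.19, adjusted p = 0.195) or NC (-0.42 ± 0.19, adjusted p = 0.185). *UBE2L6*, the conjugating enzyme, *HERC6*, and *USP18*, which removes ISG15, were not called in any comparison of constructs, with log2 fold changes of 0.12, -0.22 and -0.09 in the same contrast. The call of *ISG15* was lost without control replicates 1 or 3, gag-pol replicate 3 or NC replicate 3 (adjusted p from 0.0533 to 0.115).

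The IFIT genes encode proteins that bind foreign RNA and block its translation, and 3 of the 4 tested were called lower in the pooled contrast, beside 11.6% of all genes. *IFIT1* had normalized counts of 788, 377 and 1409 in the control libraries, 428, 265 and 426 with gag-pol, 844, 559.6 and 1203 with gag and 529, 209 and 482 with NC. Within each replicate number gag-pol and NC lay below control, and all libraries of both lay below all gag libraries. Its log2 fold change against control was -1.07 ± 0.19 (adjusted p = 0.00384) with gag-pol, -1.01 ± 0.19 (adjusted p = 0.00645) with NC and 0.11 ± 0.19 (adjusted p = 0.858) with gag. Against gag it was -1.19 ± 0.19 (adjusted p = 0.00508) with gag-pol and -1.12 ± 0.19 (adjusted p = 0.00221) with NC. These 4 calls, and that in the pooled contrast (-1.10 ± 0.14, adjusted p = 0.000141), were kept in all 12 fits that left out 1 library.

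*IFIT2* had normalized counts of 1486, 729 and 2722 in the control libraries, 1084, 677 and 824 with gag-pol, 2402, 1711 and 2374 with gag and 1083, 333 and 669.9 with NC. The control libraries spread widely, and all gag libraries lay above all gag-pol and NC libraries. By edgeR's test neither gag-pol nor NC was called against control, at -0.83 ± 0.38 (adjusted p = 0.227) and -1.23 ± 0.39 (adjusted p = 0.0999). DESeq2 called *IFIT2* lower for NC against control (adjusted p = 0.0122). *IFIT2* was called for NC against gag at -1.74 ± 0.39 (adjusted p = 0.0289) and in the pooled contrast at -1.28 ± 0.27 (adjusted p = 0.0174). In the annotation 12.1% of the exon length of *IFIT2* overlaps another gene on the same strand. *IFIT3*, its neighbor, had normalized counts of 887, 417 and 1848 in the control libraries, 649.6, 378 and 543 with gag-pol, 1385, 997 and 1664 with gag and 701, 212 and 434 with NC, and here too all gag libraries lay above all gag-pol and NC libraries. Its log2 fold change was -1.67 ± 0.40 (adjusted p = 0.0347) for NC against gag and -1.27 ± 0.28 (adjusted p = 0.0196) in the pooled contrast. The call of *IFIT2* for NC against gag was lost without gag-pol replicate 1, gag replicates 1, 2 or 3 or NC replicates 2 or 3 (adjusted p from 0.0526 to 0.0964). The call of *IFIT2* in the pooled contrast was lost without gag-pol replicate 3 or NC replicate 3 (adjusted p from 0.0518 to 0.0588). The call of *IFIT3* for NC against gag was lost without gag-pol replicates 1 or 2, gag replicates 1, 2 or 3 or NC replicates 2 or 3 (adjusted p from 0.0516 to 0.115). The call of *IFIT3* in the pooled contrast was lost without gag-pol replicate 3 or NC replicates 2 or 3 (adjusted p from 0.0511 to 0.0696). *IFIT5* had 718 to 1108 counts and was not called in any comparison of constructs, with a log2 fold change of -0.11 and a 95% interval of -0.26 to 0.04 in the pooled contrast.

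*BST2*, or tetherin, which holds budding enveloped viruses at the cell surface, rose with gag-pol and with NC. It had normalized counts of 145, 321 and 183 in the control libraries, 222, 407 and 421 with gag-pol, 149, 280.3 and 216 with gag and 236, 476 and 385 with NC. Within each replicate number both lay above control and gag, while the groups overlapped, and replicate 1 was the lowest library in every group. Its log2 fold change was 0.71 ± 0.17 (adjusted p = 0.00769) with gag-pol, 0.76 ± 0.17 (adjusted p = 0.00641) with NC and 0.01 ± 0.17 (adjusted p = 0.995) with gag against control. Against gag it was 0.71 ± 0.17 (adjusted p = 0.0135) with gag-pol and 0.76 ± 0.17 (adjusted p = 0.00413) with NC. The call with gag-pol against control was lost without control replicate 3 or gag-pol replicate 3 (adjusted p from 0.0768 to 0.0799). The call with NC against control was lost without control replicate 3 (adjusted p = 0.0693). The call with gag-pol against gag was lost without gag-pol replicate 3 or gag replicates 1, 2 or 3 (adjusted p from 0.0621 to 0.167). The calls for NC against gag and in the pooled contrast (0.73 ± 0.12, adjusted p = 0.000187) were kept in all 12 fits without 1 library. That for NC against gag was lost without replicate 1 of every construct (adjusted p = 0.0577).

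*ISG20*, an exonuclease that degrades RNA, was highest in the gag libraries. It had normalized counts of 136, 94.1 and 131 in the control libraries, 159, 124 and 131 with gag-pol, 243, 188 and 180.1 with gag and 144, 119 and 118 with NC. All gag libraries lay above all other libraries. It was called for NC against gag, at -0.68 ± 0.19 (adjusted p = 0.0199), and in the joint test of the 3 constructs (adjusted p = 0.019), and gag against control was 0.76 ± 0.20 (adjusted p = 0.0593). The call for NC against gag was lost without gag replicates 1 or 2 or NC replicates 1 or 3 (adjusted p from 0.0633 to 0.0999). *RSAD2*, or viperin, had few reads, with normalized counts of 11.4, 5.32 and 22.6 in the control libraries, 3.02, 1.95 and 10.3 with gag-pol, 23, 17.6 and 18.5 with gag and 12.3, 1.86 and 13.2 with NC. Each gag-pol and NC library lay below each gag library. It was called only in the pooled contrast (-1.33 ± 0.48, adjusted p = 0.0461), and this call was lost in 11 of the 12 fits without 1 library (adjusted p from 0.0523 to 0.168), all but that without gag replicate 3, and with no filter on low counts. *RSAD2* and *CMPK2* overlap over 6.2% of the exon length of *RSAD2*, on opposite strands.

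*MX1*, a GTPase that blocks virus replication, had normalized counts of 47.7, 86.1 and 96.8 in the control libraries, 60.4, 76.1 and 43 with gag-pol, 71.3, 70.6 and 56.6 with gag and 71.8, 65.1 and 28.6 with NC. The groups overlapped, and its log2 fold change was -0.41 ± 0.34 (adjusted p = 0.471) with gag-pol, -0.24 ± 0.34 (adjusted p = 0.823) with gag and -0.52 ± 0.34 (adjusted p = 0.34) with NC. *MX2*, *CMPK2*, *SAMD9* and *TRIM21* were not called in any comparison of constructs either. *SP100* (0 to 12 counts) and *TRIM22* (1 to 14 counts) were too low to test.

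Among the other inducible proteins, 4 of the 5 tested genes were called lower in the pooled contrast, beside 11.6% of all genes. *IFI44* had normalized counts of 64.4, 42.6 and 129 in the control libraries, 30.2, 14.6 and 12 with gag-pol, 105, 71.5 and 57.6 with gag and 71.8, 14.9 and 28.6 with NC. All gag-pol libraries lay below all control and all gag libraries. Its log2 fold change with gag-pol was -2.11 ± 0.45 (adjusted p = 0.00517) against control and -2.11 ± 0.45 (adjusted p = 0.00901) against gag, and with NC against control it was -1.18 ± 0.43 (adjusted p = 0.0754). The call against control was lost without control replicate 3 (adjusted p = 0.0704). The call against gag was lost without gag-pol replicate 3 or gag replicates 1 or 2 (adjusted p from 0.0539 to 0.0783). In the pooled contrast it was -1.65 ± 0.31 (adjusted p = 0.00081).

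*IFI27*, a small mitochondrial protein, had normalized counts of 106, 158 and 226 in the control libraries, 46.3, 66.3 and 99.7 with gag-pol, 62.9, 116 and 169.8 with gag and 83.1, 98.6 and 159 with NC. All gag-pol libraries lay below all control libraries, and within each replicate number gag-pol was the lowest of the 4. Gag-pol against control was -1.21 ± 0.22 (adjusted p = 0.00164), whereas gag and NC were -0.52 ± 0.21 (adjusted p = 0.272) and -0.51 ± 0.21 (adjusted p = 0.121). The difference between NC and gag-pol was 0.69 ± 0.22 (adjusted p = 0.261). *IFI27* was lower in the pooled contrast, at -0.60 ± 0.15 (adjusted p = 0.0069).

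*IFI6*, a member of the same small protein family, had normalized counts of 415, 453 and 1715 in the control libraries, 347, 315 and 660.3 with gag-pol, 379.6, 449.8 and 1417 with gag and 443, 300.4 and 623 with NC. Its replicate 3 was far above the others in the control and gag groups. It was called only in the pooled contrast (-0.64 ± 0.19, adjusted p = 0.0361). In the annotation 23.1% of its exon length overlaps LINC02574 on the same strand. The call of *IFI6* was lost without control replicate 2, gag-pol replicates 1, 2 or 3, gag replicates 2 or 3 or NC replicate 2 (adjusted p from 0.0591 to 0.14). *IFI44L* had normalized counts of 37.4, 13.3 and 189 in the control libraries, 20.1, 23.4 and 56.7 with gag-pol, 29, 48 and 180.1 with gag and 28.7, 5.58 and 40.8 with NC. NC was lower than control and gag in every replicate number, and the fitted change was -1.66 ± 0.49 (adjusted p = 0.0272) against gag and -1.29 ± 0.49 (adjusted p = 0.0938) against control. In the pooled contrast it was -1.24 ± 0.34 (adjusted p = 0.0132). The call of *IFI44L* for NC against gag was lost without gag replicates 2 or 3 or NC replicates 2 or 3 (adjusted p from 0.088 to 0.155). The call of *IFI44L* in the pooled contrast was lost without control replicate 3, gag-pol replicate 3 or NC replicate 3 (adjusted p from 0.0623 to 0.063). *IFI35* was not called.

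*CXCL10*, which attracts T cells, had normalized counts of 5.19, 8.87 and 16.1 in the control libraries, 0, 3.9 and 10.3 with gag-pol, 4.84, 5.88 and 22.6 with gag and 2.05, 1.86 and 11 with NC. Its log2 fold change was -1.29 ± 0.79 (adjusted p = 0.30) with gag-pol and -1.22 ± 0.79 (adjusted p = 0.338) with NC, below 0 within every replicate number and not called at these low counts. *PARP9*, *DTX3L* and *PARP14*, an ADP-ribosyltransferase, its ubiquitin ligase partner and a related enzyme that act in interferon signaling, were well counted and not called. In the pooled contrast the 95% interval of the log2 fold change was -0.22 to 0.15 for *PARP9*, -0.21 to 0.14 for *DTX3L* and -0.15 to 0.16 for *PARP14*. These intervals leave out decreases of the size seen for *DDX58* or *IFIT1*.

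**Figure D5:**
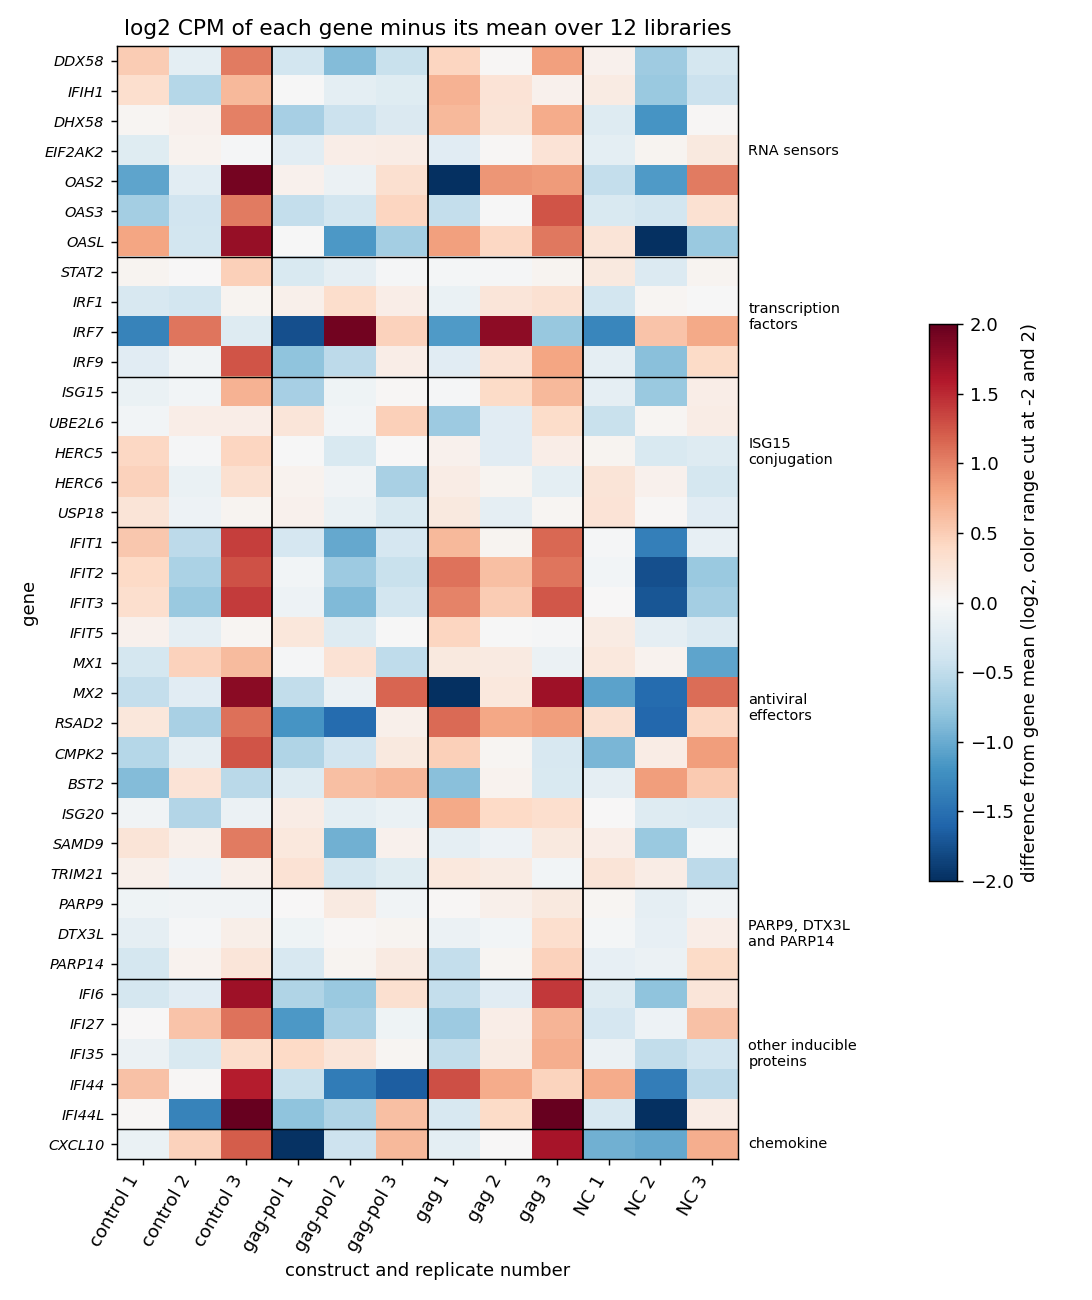
Log2 CPM of each of the 37 tested genes (lines, grouped by role) minus the mean of that gene over the 12 libraries, by construct and replicate number (columns). Red is above and blue below the mean, with colors cut at -2 and 2. Control replicate 3 and gag replicate 3 have the most red and NC replicate 2 the most blue, while EIF2AK2, USP18, PARP9 and DTX3L are pale throughout.

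The passages also differed. Between replicate numbers, 22 of the 37 genes differed, beside 52.8% of all genes tested. Replicate 3 was above replicate 2 in 12 genes and below it in 1 (27.1% of all genes called, 12.9% higher and 14.1% lower), and above replicate 1 in 16 and below it in 4 (41.6% called, 20.6% higher and 21.0% lower). Such differences included 3.00 ± 0.69 (adjusted p = 0.00131) for *MX2*, 2.31 ± 0.42 (adjusted p = 0.000474) for *IFI44L*, 1.47 ± 0.23 (adjusted p = 0.00141) for *IFI6* and 1.25 ± 0.16 (adjusted p = 2.26e-06) for *OAS3*, where *IFI44L* and *IFI6* are given against replicate 2 and the other 2 against replicate 1. *MX2* had only 0 to 26 counts in a library, so its difference rests on few reads. Within single passages, 23, 23 and 31 of the 37 genes were lower with gag-pol than with control in replicates 1, 2 and 3, and the median log2 differences were -0.26, -0.11 and -0.67. For NC against control the counts were 18, 29 and 30 and the medians 0.0081, -0.39 and -0.69, so that the median lay near 0 in replicate 1. For NC against gag the counts were 18, 31 and 32 and the medians 0.0088, -0.64 and -0.43, and for gag-pol against gag they were 26, 26 and 32 with medians of -0.23, -0.42 and -0.46. For gag against control the counts were 16, 13 and 26 and the medians 0.04, 0.23 and -0.20, so that the sign differed between passages. For NC against gag-pol the counts were 11, 26 and 19 and the medians 0.17, -0.16 and -0.0026. The share of all genes below 0 within single passages was not computed. These counts and medians therefore cannot be set apart from a shift of all genes in a pair of libraries. *OAS1* was at 0 in 8 of the 12 libraries, and its normalized counts of 6.02 to 12.9 in the other 4 all came from replicate 3.

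Other genes of the pathway, from lists chosen by name, were read in the same way. Of all genes tested, 11.3% were called for gag-pol against control, 11.2% for NC and 1.08% for gag. Whether any list differed from these shares was not tested. Of 21 interferon genes only *IFNL1* and *IFNL3* were counted well enough to test, neither was called against control, and *IFNB1* had 0 to 12 counts. *IFNAR2*, a chain of the type I interferon receptor, was higher with gag-pol (0.41 ± 0.09, adjusted p = 0.00526) and with NC (0.39 ± 0.09, adjusted p = 0.00914), and *IFNGR2* with gag-pol (0.26 ± 0.08, adjusted p = 0.0445). *IFNAR1*, the other chain, was at -0.05 ± 0.08 (adjusted p = 0.721) and -0.03 ± 0.08 (adjusted p = 0.824). *TYK2*, a kinase of the receptor, was lower with gag-pol (-0.29 ± 0.08, adjusted p = 0.0312).

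Of 14 tested genes for nucleic acid sensing and its adaptors, 1 was called against control, *MAVS* with NC (0.30 ± 0.09, adjusted p = 0.0369), the adaptor through which *DDX58* and *IFIH1* signal. *IRF3* was at -0.19 ± 0.08 (adjusted p = 0.147) with gag-pol and -0.12 ± 0.08 (adjusted p = 0.364) with NC. None of 10 negative regulators was called against control. Lists of 14 and 10 genes are too short for so few calls to be told from the shares of all genes called, 11.3% for gag-pol, 11.2% for NC and 1.08% for gag. Of 12 tested genes of antigen presentation and the interferon-gamma response, *B2M* was lower with gag-pol (-0.34 ± 0.09, adjusted p = 0.0155) and *NLRC5* with NC (-0.49 ± 0.11, adjusted p = 0.00938). Among 13 tested NF-kB targets, *RELB* was higher with gag-pol at 0.62 ± 0.10 (adjusted p = 0.00056), with gag at 0.76 ± 0.10 (adjusted p = 0.000232) and with NC at 0.42 ± 0.10 (adjusted p = 0.0105). The chemokine gene *CCL2* was lower with gag-pol (-1.88 ± 0.35, adjusted p = 0.00184) and NC (-1.80 ± 0.35, adjusted p = 0.00342). For NC against gag, 8 of these 13 genes were called lower and none higher, beside 8.12% of all genes lower and 8.76% higher.

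Markers of leukocytes were checked because these cells express many interferon-stimulated genes. Of 8 markers, *CD14* and *ITGAM* were counted well enough to test, and *CD14* was lower with gag-pol (-1.33 ± 0.24, adjusted p = 0.00161) and NC (-1.28 ± 0.24, adjusted p = 0.00264). The defining markers *PTPRC* (0 to 6 counts), *CD3E* (0 to 7), *LYZ* (0 to 16), *CLEC4C* (0 to 2) and *HLA-DRA* (0 to 12) were at or near 0, and *PTPRC* was at 0 in 10 of the 12 libraries. The summed normalized count of the 8 markers ranged in controls from 169.5 to 709, in gag-pol libraries from 136 to 233, in gag libraries from 214 to 610.2 and in NC libraries from 73.5 to 359, and without *CD14* and *ITGAM* it was at most 39.8. The part of *CD14* and *ITGAM* in the results above was not tested. The 7 markers of HEK293 cells were counted in all libraries. Of these, *NEFL*, a neurofilament gene, was higher with gag-pol (0.56 ± 0.12, adjusted p = 0.00868) and NC (0.75 ± 0.12, adjusted p = 0.00243), and *LHX1* with gag-pol (0.55 ± 0.17, adjusted p = 0.0359).

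Genes with and without an ISRE match were described side by side. In the pooled contrast, 10 of the 22 tested genes with a match were called lower and 1 higher, beside 11.6% of all genes lower and 13.1% higher, with a median log2 fold change of -0.40. Of the 8 tested genes in the promoter table without a match, 2 were called lower (*DDX58* and *IRF9*) and none higher, with a median of -0.20. Changes ranged from -1.65 to 0.73 with a match and from -0.89 to 0.12 without one, so the ranges overlapped. The difference between these sets was not tested.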

How the data were processed

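Poly(A) RNA from 12 samples of transfected HEK293 cells was sequenced as read pairs. The authors aligned reads with STAR 2.7.3 to the GRCh38.p13 genome, used SAMtools 1.8 and deposited whole-number featureCounts counts per gene symbol. The annotation release, the strand setting and the rule for multimapping reads are not given in the sources used here.

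Libraries held 30625725 to 45316749 counts. Genes with too few counts by construct (minimum count 10, minimum total 15) were removed, and 17176 of 26485 genes were tested in edgeR 4.0.16 (R 4.3.3) with TMM factors and the robust quasi-likelihood test. The model held construct and replicate number and left 6 residual degrees of freedom. Replicates are passages of the same cells. The p-values measure the spread that is left after construct and replicate number are fitted, not the whole spread between passages. The replicate number was used as a block because the study's model took harvest date and construct as its main variables. Libraries with the same replicate number deviated together from their construct means (correlations of 0.14 to 0.54 over 18 pairs). The correlations were -0.50 to 0.07 over 36 pairs with different numbers. Deviations sum to 0 within each construct, so these lower values follow from the higher ones and are no separate evidence. In data simulated for gag-pol against control with 17176 genes, 60% of genes changed by 0.5 and 86% of those changed by 1 (log2) were called, with 6 false calls.

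The members, gene lists and comparisons were chosen with earlier results of these data known. Values are given for each member called in a comparison of constructs or in the joint test and for *DDX58*, *IFIH1*, *ISG15*, *IFIT1*, *MX1*, *STAT2*, *IRF9* and *CXCL10*, and genes of other lists are named where called against control, with *IRF3*, *MAVS*, *IFNB1*, *IFNAR1* and *IFNAR2* besides. *IRF7* and genes with no call fall outside this rule and were named after their values were seen. A gene of the pathway lists and a marker gene are not reported here. Alternatives were DESeq2 1.42.0, RLE factors, no filter, at least 10 counts in 3 libraries, no replicate number, *PEG10* left out, no robust estimation, only the compared groups, each library or replicate number left out and, added after seeing the data, the newer quasi-likelihood method of edgeR. Promoter sequences are from RefSeq (GRCh38.p14), and gene lengths and overlaps from GENCODE release 44.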

Additional observations from a re-analysis of the deposited data

How the results depend on the processing

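No direction of a called gene reversed under any alternative. Of 43 calls of single genes between constructs, 43 were kept with DESeq2, RLE factors, *PEG10* left out, at least 10 counts in 3 libraries, no robust estimation and the newer edgeR method. Without a filter on low counts 40 were kept (*ISG15*, *RSAD2* and *IFI6* were lost in the pooled contrast), and with only the compared groups 25 of 27 (*IRF1* was lost for gag-pol against control and *DHX58* for NC against gag). Without the replicate block 0 were kept: the count of these genes called was 0 in each comparison of constructs, where it had been 9 for gag-pol against control, 4 for NC against control, 5 for gag-pol against gag, 9 for NC against gag, 16 in the pooled contrast and 9 in the joint test. Without it at most 0.0175% of all genes were called, and the cause was not tested.

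Counts moved by over 1.5 times as follows. DESeq2 called 8 genes for NC against control, 10 for gag-pol against gag, 16 in the joint test and 1 for gag against control. The shares of all genes it called were 16.0%, 10.1%, 28.2% and 1.91% in the same order. No robust estimation gave 8, 9 and 14 in the first 3 of these comparisons (10.4%, 5.89% and 19.1% of all genes called). With only the compared groups, 7 were called for NC against control (12.8% of all genes called) and 15 for gag-pol against gag (15.9%). For gag against control, 1 was called with no filter (1.63% of all genes called) and 1 with the newer method (1.08%). Without 1 library, or 1 replicate number of every construct, the counts ran from 4 to 12 for gag-pol against control, 0 to 2 for gag against control, 2 to 10 for NC against control, 0 to 10 for gag-pol against gag, 3 to 12 for NC against gag, 7 to 17 in the pooled contrast and 7 to 15 in the joint test. In the same fits the share of all genes called also moved. It ran from 2.44% to 13.9% for gag-pol against control, 0.127% to 4.26% for gag against control and 2.1% to 13.5% for NC against control. For gag-pol against gag it ran from 0.0693% to 10.6%, and for NC against gag from 1.98% to 20.4%. It ran from 13% to 23.2% in the pooled contrast and from 3.67% to 20.5% in the joint test. The causes of these moves were not tested. Of the 43 calls, 18 were kept in all 12 fits without 1 library, and 24, 30 and 24 were kept without replicates 1, 2 and 3 of every construct. *OAS1*, *XAF1*, *SAMD9L*, *SP100* and *TRIM22* were too shallow for a test, and the intervals of *OAS2*, *MX2*, *CMPK2* and *CXCL10* in the pooled contrast reach past -1 (log2).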
